A study of Rattus norvegicus with 9 samples.

Results

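The genes described here encode proteins of striated muscle, the contractile tissue of skeletal muscle and heart, and were measured in rat gastric lymphatic vessel, whose wall muscle is classed as smooth. They were taken by symbol from a list of 40 genes, of which 39 are among the 18964 genes of the deposited table. Myl7 was not analysed here. By isoform the 39 genes divide into 14 fast, 8 slow, 5 cardiac and 1 developmental gene and 11 genes shared by striated muscle types.

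Striated muscle contracts by the sliding of myosin thick filaments over actin thin filaments within the sarcomere, and calcium acting on the troponin complex of the thin filament switches the sliding on. Most of these proteins exist as fast, slow and cardiac isoforms from separate genes, and a fibre is typed by the isoforms that it makes, the myosin heavy chain above all. Slow skeletal fibres share several isoforms with the heart, among them the heavy chain of Myh7 and the troponin C of Tnnc1. Smooth muscle has its own myosin and actin genes and no sarcomeres, although the muscle of rat mesenteric collecting lymphatics has been described as carrying the beta heavy chain and cardiac actin beside its smooth isoforms.

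Gastric lymphatic vessels came from male Sprague-Dawley rats, labelled as wild type, and their poly(A) RNA gave 3 groups of 3 libraries. BXD rats were fasted for 12 h, kept for 4 h in water 15 cm deep at 22 °C, a stress that ulcerates the stomach, and 30 min later given Banxia Xiexin decoction, a herbal preparation, by gavage at 10 ml per kg. Model rats had the same fast and the same stress and then a gavage of vehicle at the same volume, which the treatment protocol gives as distilled water and the sample label as saline. Control rats had the fast and the gavage of distilled water and no immersion. The study used 6 rats a group, and the labels do not tie a library to a rat or say whether rats were pooled, so a p-value here measures spread among libraries, which may be technical. No age of the rats was given.

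Library totals were 12313813 to 13455705 estimated counts. All 6 markers of lymphatic endothelium were above 0 in each library, and their sum was 593 to 753 CPM in BXD libraries, 425 to 696 CPM in model libraries and 440.0 to 473 CPM in control libraries. The sum of 11 smooth muscle markers was 7831 to 11527 CPM, 2663 to 4662 CPM and 5544 to 8195 CPM in the same order. For the striated genes 3 libraries stood apart from the other 6: BXD replicate 1, BXD replicate 3 and model replicate 2. The comparisons of groups are therefore given for the striated genes with these 3 libraries and without them.

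Summed over the 39 genes, the level was 11499.6 CPM in BXD replicate 1, 173 CPM in BXD replicate 2 and 6497 CPM in BXD replicate 3, where CPM is counts scaled to a common library size that allows for composition. The sum was 165, 917 and 123 CPM in model replicates 1 to 3 and 207, 169 and 209.9 CPM in control replicates 1 to 3. BXD replicate 2, model replicates 1 and 3 and the controls thus lay together between 123 and 209.9 CPM. Model replicate 2 stood 4.37-fold above the highest of these 6, and BXD replicate 3 stood 30.9-fold above it. The genes took 1.07% of all counts in BXD replicate 1 (95% Wilson interval 1.07 to 1.08), 0.640% in BXD replicate 3 (0.635 to 0.644) and 0.0800% in model replicate 2 (0.0785 to 0.0816), and 0.0120% to 0.0234% in the other 6. These intervals cover counting error only. In bulk RNA, fewer cells of a type and less RNA per cell cannot be told apart, and the same holds for more of either.

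**Figure D1:**
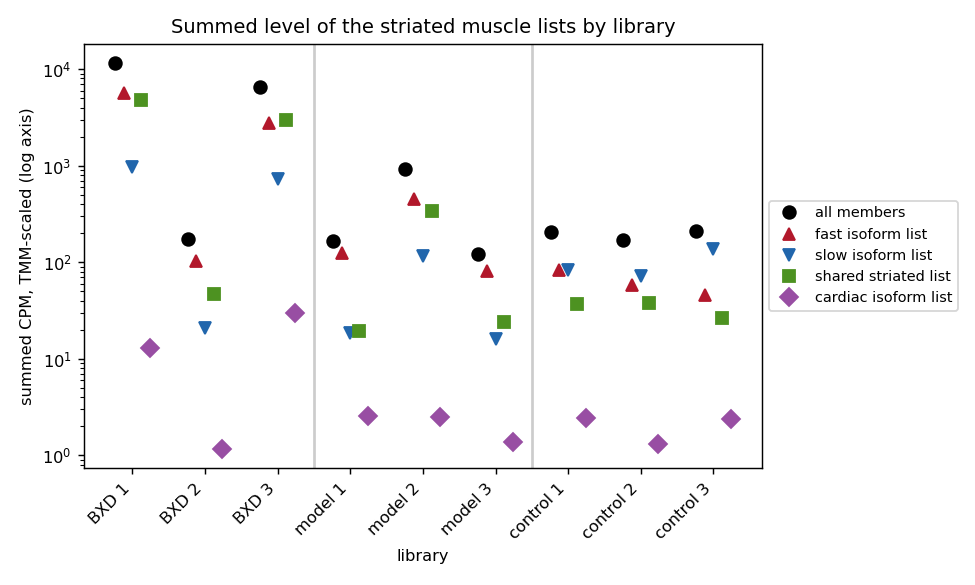
Summed level of the fast, slow, cardiac and shared striated gene lists in each of the 9 libraries, in TMM-scaled CPM on a log axis, with 1 point for each list and library. BXD replicates 1 and 3 and model replicate 2 stand above the rest for the fast and shared lists, with fast sums of 5679, 2779 and 456 CPM against 45.5 to 125 CPM in the other 6 libraries.

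The 3 high libraries were picked out by these same genes, so their rank gene by gene is a description. The same ranks were not counted over all genes. BXD replicate 1 held the highest value of 32 of the 39 genes, BXD replicate 3 of 6 and model replicate 2 of 1, Mybpc2. For 30 genes the 3 highest values were those of BXD replicate 1, BXD replicate 3 and model replicate 2. The fast list summed to 5679, 104 and 2779 CPM in BXD libraries, 125, 456 and 81.0 CPM in model libraries and 84.1, 58.4 and 45.5 CPM in control libraries. The slow list summed to 970.4, 20.7 and 735 CPM in BXD libraries, 18.3, 116 and 15.9 CPM in model libraries and 82.8, 71.9 and 136 CPM in control libraries. Model replicate 2 was 0.855 times the highest of the other 6 for the slow list. That was control replicate 3, at 136 CPM, of which Mybpc1 made up 109 CPM.

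**Figure D2:**
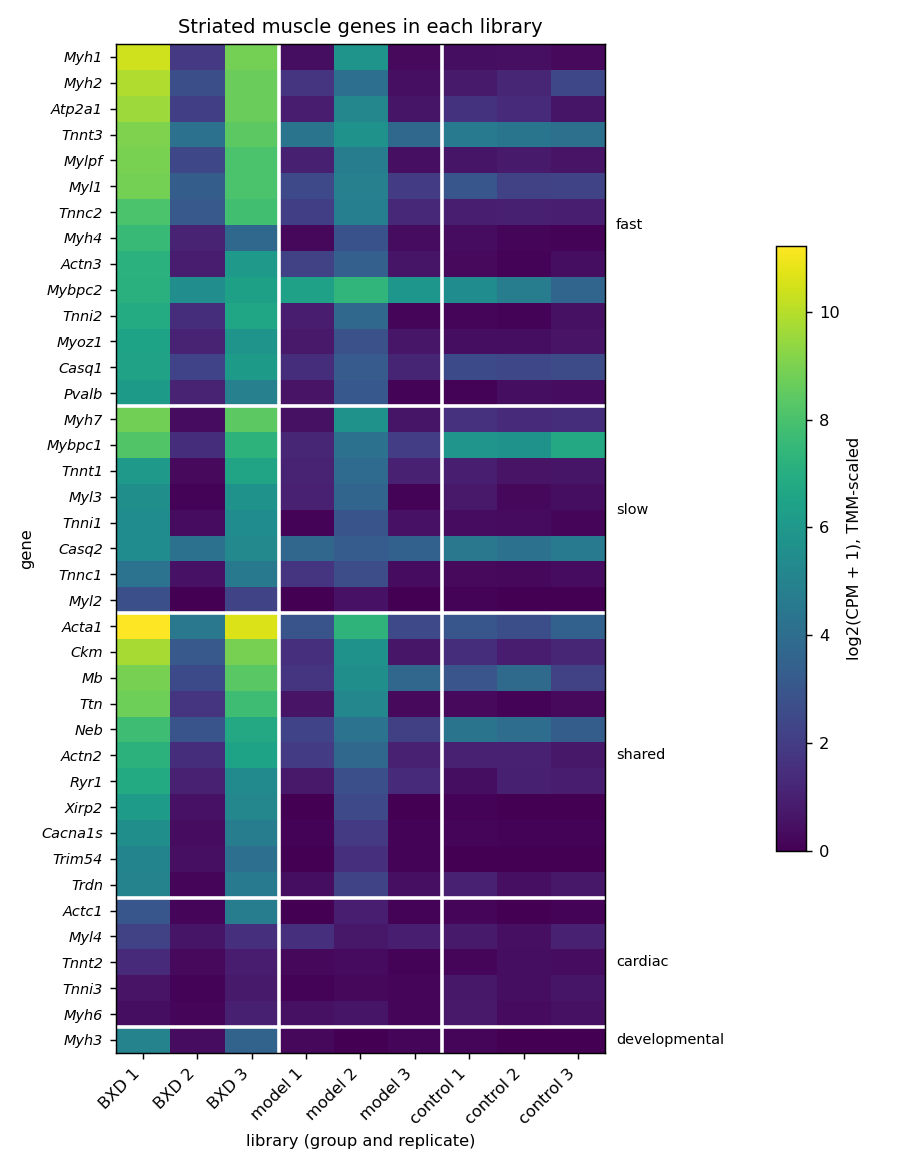
Level of each striated gene in each library, as colour on a log2 scale of TMM-scaled CPM, with genes in rows grouped by list and libraries in columns from BXD to model to control. The columns of BXD replicate 1, BXD replicate 3 and model replicate 2 stand out, and Mybpc1, Mybpc2, Casq2, Neb and Tnnt3 are also seen in the control columns.

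Sequences before the start of the most abundant of these genes are shown because the genes moved together across libraries. On the TPM scale, which is per length, the 5 with the highest mean were Acta1, Mylpf, Mb, Tnnt3 and Myl1. The promoters below run from 250 bases before to 50 bases after the RefSeq gene start on build GRCr8, which is not the Rnor_6.0 build of the deposited coordinates, and each is written 5′ to 3′ on the strand of its gene. Capitals mark matches to the E-box CANNTG, the site of myogenic factors such as MyoD, to the TATA box TATAAA, to the CArG box, the site of serum response factor, or to the MEF2 box, each searched on both strands. Tnnt3 is named only.
Acta1, chr19:68784145-68784444, minus strand: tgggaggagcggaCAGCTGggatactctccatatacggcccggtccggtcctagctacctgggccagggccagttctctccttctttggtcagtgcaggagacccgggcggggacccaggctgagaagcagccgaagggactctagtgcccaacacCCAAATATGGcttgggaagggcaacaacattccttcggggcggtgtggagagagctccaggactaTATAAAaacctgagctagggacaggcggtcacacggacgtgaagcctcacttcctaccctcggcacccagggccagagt
Mylpf, chr1:191260039-191260338, plus strand: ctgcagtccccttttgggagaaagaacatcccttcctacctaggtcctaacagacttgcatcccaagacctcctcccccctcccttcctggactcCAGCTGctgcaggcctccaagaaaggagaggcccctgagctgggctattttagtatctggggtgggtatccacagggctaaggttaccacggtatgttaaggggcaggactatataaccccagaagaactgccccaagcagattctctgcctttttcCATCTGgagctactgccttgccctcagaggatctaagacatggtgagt
Mb, chr7:110647693-110647992, minus strand: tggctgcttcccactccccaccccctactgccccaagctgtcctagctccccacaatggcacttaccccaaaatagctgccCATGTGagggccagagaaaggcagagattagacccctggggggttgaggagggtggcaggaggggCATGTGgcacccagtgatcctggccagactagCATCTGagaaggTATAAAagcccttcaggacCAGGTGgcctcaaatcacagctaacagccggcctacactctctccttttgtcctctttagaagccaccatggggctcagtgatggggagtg
Myl1, chr9:75907647-75907946, minus strand: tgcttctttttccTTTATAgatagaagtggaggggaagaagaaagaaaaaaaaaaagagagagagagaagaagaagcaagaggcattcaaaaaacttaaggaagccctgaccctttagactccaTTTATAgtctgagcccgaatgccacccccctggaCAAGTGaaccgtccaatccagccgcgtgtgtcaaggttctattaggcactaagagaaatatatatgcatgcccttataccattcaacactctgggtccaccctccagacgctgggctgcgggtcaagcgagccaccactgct
The Acta1 promoter held 1 E-box, 1 TATA box and 1 CArG box, and that of Mylpf 2 E-boxes. That of Mb held 4 E-boxes and 1 TATA box. That of Myl1 held 1 E-box and 2 matches to TATAAA, both on the strand opposite to the gene. Matches on either strand and at any place in the window were counted. A promoter was found for 36 of the 39 genes. An E-box was present in 31 of the 36 (86.1%) and in 71.6% of the 27457 promoters of the table, a TATA box in 12 (33.3%) and 14.3%, a CArG box in 4 (11.1%) and 1.6%, and a MEF2 box in 6 (16.7%) and 3.4%. A match describes the letters of this window and nothing about binding.

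Among the genes shared by striated muscle types, Acta1, which encodes the actin of skeletal muscle, was the most abundant per length in the 3 high libraries, at 2713 and 1781 TPM in BXD replicates 1 and 3 and 149 TPM in model replicate 2. Acta1 (gene 29437, chromosome 19, 56674072 to 56677084 on Rnor_6.0) stood at 2389, 21.7 and 1575 CPM in the BXD libraries, 6.66, 156 and 4.56 CPM in the model libraries and 7.10, 5.45 and 10.3 CPM in the control libraries. BXD replicate 2, at 21.7 CPM, lay above every control library, and model replicates 1 and 3 lay within or below the control range of 5.45 to 10.3 CPM. Ckm, the muscle creatine kinase that buffers ATP, stood at 853, 7.85 and 483 CPM in the BXD libraries, 1.84, 53.7 and 0.608 CPM in the model libraries and 1.77, 0.844 and 1.33 CPM in the control libraries. Mb, the oxygen-binding myoglobin, stood at 484, 4.79 and 329 CPM in the BXD libraries, 2.37, 47.8 and 12.2 CPM in the model libraries and 6.74, 13.6 and 3.43 CPM in the control libraries. For Ckm the lowest BXD library was above the highest control, as for 23.8% of all genes tested. For Mb BXD replicate 2 lay within the control range.

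Ttn encodes titin, the giant spring of the sarcomere. Its level was 423, 2.197 and 213 CPM in the BXD libraries, 0.526, 35.5 and 0.228 CPM in the model libraries and 0.213, 0.0649 and 0.210 CPM in the control libraries. The control libraries, with 7 Ttn counts between them, were at or below the floor of 3 counts a library, 0.195 to 0.269 CPM. Neb encodes nebulin, the ruler of the thin filament, and stood at 212, 6.51 and 108 CPM in the BXD libraries, 3.85, 18.1 and 3.42 CPM in the model libraries and 18.8, 15.1 and 8.97 CPM in the control libraries. Controls were above BXD replicate 2 and above model replicates 1 and 3 for Neb.

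The calcium release machinery of the triad showed the same 3 libraries. Ryr1, the calcium release channel, stood at 114 and 40.9 CPM in BXD replicates 1 and 3 and 5.65 CPM in model replicate 2, against 0.355 to 1.59 CPM in the other 6 libraries. Cacna1s, the voltage sensor of the T-tubule, stood at 47.8 and 25.5 CPM in BXD replicates 1 and 3 and 2.78 CPM in model replicate 2, and at 0.0649 to 0.314 CPM in the others. Trdn, which anchors calsequestrin to the release channel, stood at 31.6 and 23.8 CPM in BXD replicates 1 and 3 and 3.94 CPM in model replicate 2, and at 0.157 to 1.06 CPM in the others. BXD replicate 2 was the lowest of the 9 libraries for Trdn.

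Actn2, an alpha-actinin of the Z-disc, stood at 146 and 91.0 CPM in BXD replicates 1 and 3 and 12.6 CPM in model replicate 2, and at 0.631 to 2.89 CPM in the other 6 libraries. Xirp2, an actin-binding protein of muscle attachment sites, stood at 72.8, 0.471 and 36.1 CPM in the BXD libraries, 0, 4.57 and 0 CPM in the model libraries and 0.0710, 0 and 0 CPM in the control libraries. Trim54, a ubiquitin ligase of the sarcomere, stood at 32.6, 0.392 and 16.003 CPM in the BXD libraries, 0, 1.97 and 0.0760 CPM in the model libraries and 0, 0 and 0 CPM in the control libraries. The controls held 1 Xirp2 count against 1356 pooled over the BXD libraries, a ratio of 1563 after scaling for depth (exact 95% interval 280.0 to 61761). The interval covers counting error only and not the spread among libraries. BXD replicate 2 alone, with 6 counts, stood at 19.9 times the control mean. The controls held 0 Trim54 counts against 390, 5 and 212 in BXD replicates 1 to 3. Pooled to 607, these were at least 233-fold higher, scaled for depth, than 3 counts over the control group would be.

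The fast myosin heavy chains lie in sequence on chromosome 10 (Rnor_6.0), Myh2 from 53711895 to 53738164, Myh1 from 53740841 to 53764614 and Myh4 from 53778456 to 53848494. They are near-identical copies whose reads the counting may have divided between them, so their separate values are uncertain. Myh1 stood at 1376, 2.67 and 476 CPM in the BXD libraries, 0.350, 54.8 and 0.228 CPM in the model libraries and 0.355, 0.390 and 0.210 CPM in the control libraries. Myh2, the heavy chain of the fast oxidative fibre, stood at 951, 5.57 and 397 CPM in the BXD libraries, 2.19, 16.3 and 0.380 CPM in the model libraries and 0.781, 1.30 and 4.35 CPM in the control libraries. Myh4, the heavy chain of the fastest fibre, stood at 191, 1.10 and 12.8 CPM in the BXD libraries, 0.175, 6.18 and 0.304 CPM in the model libraries and 0.284, 0.130 and 0.0701 CPM in the control libraries. The 2 high BXD libraries differed most for Myh4, at 191 CPM in replicate 1 and 12.8 CPM in replicate 3.

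Of the fast light chains, Mylpf, the regulatory chain, stood at 491, 4.47 and 260.0 CPM in the BXD libraries, 0.964, 24.9 and 0.380 CPM in the model libraries and 0.568, 0.779 and 0.491 CPM in the control libraries. Myl1, the essential chain, stood at 465, 8.87 and 262 CPM in the BXD libraries, 4.55, 28.7 and 2.96 CPM in the model libraries and 6.96, 3.64 and 4.00 CPM in the control libraries. Mylpf was below 1 CPM in model replicates 1 and 3 and in all 3 controls, and Myl1 was detected at 2.96 CPM or more in all 9 libraries. Every BXD library was above every control library for both genes, as for 23.8% of all genes tested.

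The fast troponins bind calcium, inhibit the filament and tie the complex to tropomyosin. Tnnc2 (gene 296369, chromosome 3, 161243606 to 161246543), the calcium-binding subunit, stood at 263, 7.77 and 228 CPM in the BXD libraries, 3.24, 28.1 and 1.37 CPM in the model libraries and 0.923, 0.974 and 0.911 CPM in the control libraries. Every BXD library and every model library was above the highest control, 0.974 CPM, as for 23.8% and 28.9% of all genes tested. Tnni2, the inhibitory subunit, stood at 121, 1.73 and 99.9 CPM in the BXD libraries, 0.788, 12.3 and 0.152 CPM in the model libraries and 0.142, 0.0649 and 0.421 CPM in the control libraries. Tnnt3, the tropomyosin-binding subunit, stood at 529, 18.0 and 338 CPM in the BXD libraries, 19.0, 52.6 and 12.9 CPM in the model libraries and 24.1, 19.3 and 16.9 CPM in the control libraries. Tnnt3 was the most abundant of the striated genes per length in the mean of the controls, at 34.5 to 49.1 TPM. In control replicate 3 Mybpc1 was above it, at 47.9 TPM. BXD replicate 2 lay within the control range of Tnnt3 on CPM and below it on TPM, at 30.6.

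Atp2a1, the calcium pump of fast fibres, stood at 765, 3.22 and 406 CPM in the BXD libraries, 0.788, 36.1 and 0.532 CPM in the model libraries and 2.13, 1.56 and 0.561 CPM in the control libraries. Actn3, the fast alpha-actinin, stood at 144, 0.863 and 66.8 CPM in the BXD libraries, 3.59, 9.86 and 0.532 CPM in the model libraries and 0.213, 0.0649 and 0.350 CPM in the control libraries. Pvalb, the calcium buffer parvalbumin, stood at 68.3 and 28.3 CPM in BXD replicates 1 and 3 and 7.62 CPM in model replicate 2, and at 0.0710 to 1.10 CPM in the other 6 libraries. Myoz1, a Z-disc partner of calcineurin, stood at 88.8 and 55.4 CPM in BXD replicates 1 and 3 and 5.82 CPM in model replicate 2, and at 0.325 to 1.18 CPM in the others. For these 4 genes every BXD library was above every control library, as for 23.8% of all genes tested.

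Among the slow isoforms, Myh7 (gene 29557), the slow and cardiac beta heavy chain, overlaps Myh6 on the plus strand of chromosome 15 (33605769 to 33657761 and 33605653 to 33629730), so reads in the shared stretch cannot be assigned to either with certainty. Myh7 stood at 456, 0.314 and 333 CPM in the BXD libraries, 0.438, 51.9 and 0.532 CPM in the model libraries and 2.06, 1.49 and 1.75 CPM in the control libraries. BXD replicate 2 had 4 counts and lay below every control, while BXD replicates 1 and 3 and model replicate 2 lay above them all. Myl3, the slow and ventricular essential light chain, stood at 47.7 and 52.2 CPM in BXD replicates 1 and 3 and 11.6 CPM in model replicate 2, and at 0.0760 to 1.05 CPM in the other 6. Myl2, the regulatory light chain of slow fibre and ventricle, reached 5.59 and 4.00 CPM in BXD replicates 1 and 3 and 0.448 CPM in model replicate 2, and stood at 0 to 0.0710 CPM in the others, with 1 count over the 3 controls.

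The slow troponins were higher in BXD replicate 3 than in BXD replicate 1 for T and C and level for I. Tnnt1 stood at 65.0, 0.235 and 92.4 CPM in the BXD libraries, 1.14, 14.2 and 1.06 CPM in the model libraries and 0.923, 0.519 and 0.561 CPM in the control libraries. Tnni1 stood at 43.3 and 42.9 CPM in BXD replicates 1 and 3 and 6.45 CPM in model replicate 2, and at 0.0876 to 0.456 CPM in the other 6 libraries. Tnnc1, the calcium-binding subunit of slow fibre and heart, stood at 18.4, 0.471 and 22.1 CPM in the BXD libraries, 2.28, 5.38 and 0.304 CPM in the model libraries and 0.213, 0.195 and 0.280 CPM in the control libraries. Model replicate 1 held 2.28 CPM of Tnnc1, above all 3 controls and BXD replicate 2.

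The cardiac list was low throughout. Its 5 genes summed to 13.0, 1.18 and 29.7 CPM in BXD libraries, 2.54, 2.51 and 1.37 CPM in model libraries and 2.41, 1.30 and 2.38 CPM in control libraries. Actc1, the cardiac actin that skeletal muscle also makes in development, made up most of it in BXD replicates 1 and 3 and stood at 7.10, 0.157 and 25.4 CPM in the BXD libraries, 0, 0.896 and 0.0760 CPM in the model libraries and 0.142, 0 and 0.0701 CPM in the control libraries. The ratio of Actc1 counts in BXD libraries over control libraries was 162 after scaling for depth (exact 95% interval 55.2 to 791), from 423 counts against 3. This interval leaves out the spread among libraries, which held 85, 2 and 336 counts in BXD replicates 1 to 3. Actc1 was also the gene with the lowest ratio of BXD replicate 1 over BXD replicate 3, 0.280 (0.218 to 0.356).

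The other cardiac isoforms reached at most 3.51 CPM in any library. Myl4, the atrial essential light chain that fetal skeletal muscle also makes, stood at 3.51, 0.549 and 1.81 CPM in the BXD libraries, 1.84, 0.627 and 0.911 CPM in the model libraries and 0.781, 0.390 and 1.05 CPM in the control libraries. Myh6, the alpha heavy chain of the heart, stayed at or below 0.981 CPM, Tnni3, the cardiac troponin I, at or below 0.755 CPM, and Tnnt2, the cardiac troponin T, at or below 1.59 CPM in all 9 libraries. Of 7 hormones and factors of the heart chambers 5 were in the table and 0 passed the filter on low counts. The highest value of Nppa, which encodes the atrial natriuretic peptide, was 0.151 CPM. Myh3, the embryonic heavy chain, which also lies in the cluster on chromosome 10, stood at 31.6, 0.314 and 11.02 CPM in the BXD libraries, 0.175, 0 and 0.152 CPM in the model libraries and 0.142, 0 and 0 CPM in the control libraries. Its counts, 528 in BXD libraries and 2 in controls, gave a ratio of 304 after scaling for depth (exact 95% interval 83.8 to 2518). This interval too covers counting error only, and the counts were 378, 4 and 146 in BXD replicates 1 to 3.

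Relative to BXD replicate 3, BXD replicate 1 held more of the fast isoforms and no more of several slow ones. Over the 33 genes with at least 10 counts in each of the 3 high libraries, the median ratio of BXD replicate 1 over BXD replicate 3 was 1.70, and the ratios ran from 0.280 for Actc1 to 14.9 for Myh4. The median was 1.83 over the 14 fast genes, 1.01 over 7 slow genes and 1.87 over the 11 shared genes. Of the 33 ratios 4 were below 1, those of Actc1, Tnnt1 (0.703), Tnnc1 (0.830) and Myl3 (0.914), and the exact interval for counting error lay below 1 for Actc1, Tnnt1 and Tnnc1. Each library is 1 sample, so these ratios compare libraries and not treatments.

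**Figure D3:**
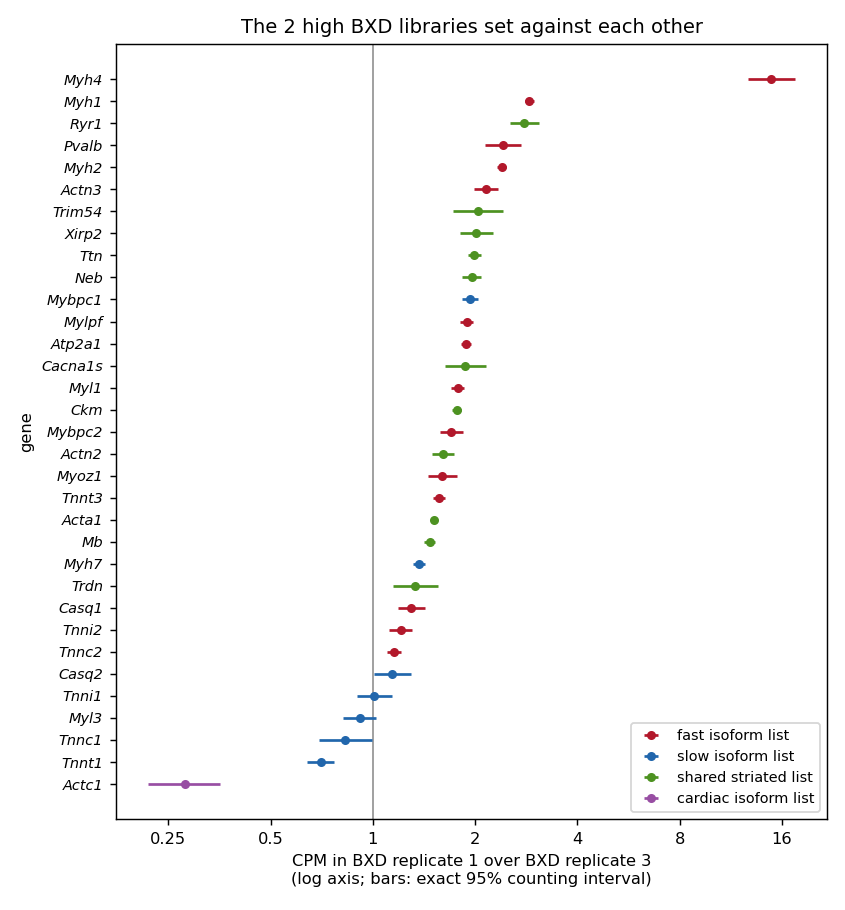
Ratio of CPM in BXD replicate 1 over BXD replicate 3 for each of 33 striated genes, on a log axis, with 95% intervals for counting error and colours by isoform list. Most genes lie between 1 and 3, Myh4 stands at 14.9, and Actc1, Tnnt1, Tnnc1 and Myl3 lie below 1.

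The makeup of isoforms within each protein differed between the 3 high libraries in one order for most pairs. Myh7 made up 15.3% of the counts of Myh7, Myh1, Myh2 and Myh4 in BXD replicate 1 (95% Wilson interval 15.0 to 15.7), 27.3% in BXD replicate 3 (26.6 to 28.0) and 40.2% in model replicate 2 (37.7 to 42.7). The slow share of the essential light chain, Myl3 of Myl3 and Myl1, was 9.30% (8.60 to 10.1), 16.6% (15.5 to 17.8) and 28.7% (24.7 to 33.1) in the same libraries. For both proteins the 3 intervals, which cover counting error only, did not overlap. The Tnnc1 share of troponin C was 6.53%, 8.85% and 16.04%, and the Tnni1 share of troponin I was 26.4%, 30.0% and 34.4%. Shares of counts depend on transcript length. On TPM the Tnnc1 share was 13.0%, 17.2% and 29.2%, and the Tnni1 share was 15.9%, 17.5% and 22.2%. The Tnnt1 share of troponin T was 10.9% in BXD replicate 1 (10.2 to 11.7) and reached 21.5% (20.4 to 22.6) in BXD replicate 3 and 21.2% (18.4 to 24.3) in model replicate 2, where the intervals overlapped. BXD replicate 1 had the lowest slow share of each of the 5 proteins, although its interval for troponin I, 24.5 to 28.4, overlapped that of BXD replicate 3, 28.0 to 32.1.

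**Figure D4:**
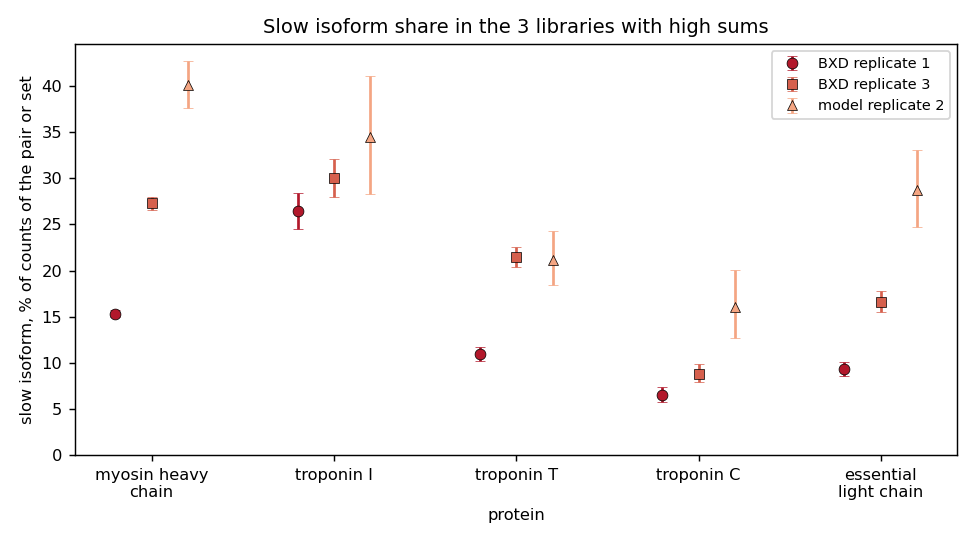
Share of counts of the slow isoform, in percent of the pair or set, for 5 sarcomere proteins in BXD replicate 1, BXD replicate 3 and model replicate 2, with 95% Wilson intervals for counting error. Myh7 makes up 15.3%, 27.3% and 40.2% of the heavy chain counts in the 3 libraries.

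The fast heavy chains also differed in their shares. Myh1 held 46.3%, 39.1% and 42.4% of the heavy chain counts in BXD replicate 1, BXD replicate 3 and model replicate 2. Myh2 held 32.0%, 32.6% and 12.6%, and Myh4 held 6.43%, 1.05% and 4.79%. Model replicate 2 therefore had the smallest share of Myh2, and BXD replicate 3 the smallest share of Myh4. In the other 6 libraries the 4 genes summed to between 19 and 123 counts, and shares there carry wide intervals.

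BXD replicate 2 was at the level of the controls in its sum. Of the 34 genes that passed the filter on low counts, it lay above all 3 controls for 23 and below all 3 for 8, where 37.6% of all genes that passed were above and 40.1% below. Relative to the control mean it held 13.5 times as much Ttn, 8.38 times as much Myh1, 8.30 times as much Tnnc2, 7.30 times as much Mylpf and 2.85 times as much Acta1. It held 0.177 times as much Myh7, 0.188 times as much Myl3, 0.353 times as much Tnnt1 and 0.0249 times as much Mybpc1. Some of these ratios rest on few counts. BXD replicate 2 held 4 Myh7, 1 Myl3, 3 Tnnt1 and 23 Mybpc1 counts, and 28 Ttn counts against 7 over the 3 controls. The values of Myh7, Myl3 and Tnnt1 lie near or below the floor of 3 counts and are uncertain. Model replicate 1 lay above all controls for 14 of the 34 genes and below all for 8, where 39.6% and 40.9% of all genes were so. Model replicate 3 lay above for 11 and below for 14, where 39.7% and 41.1% were so, and the counts above the controls were near those shares.

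Some of the genes were also expressed in controls, and among these Mybpc1, Mybpc2, Casq2 and Neb did not have their 3 highest values in the 3 high libraries. Mybpc1 (gene 362867, chromosome 7, 29086159 to 29191139), the slow myosin-binding protein C, stood at 292, 1.80 and 151 CPM in the BXD libraries, 1.31, 17.6 and 3.11 CPM in the model libraries and 57.3, 51.4 and 109 CPM in the control libraries. All 3 controls were above every model library and above BXD replicate 2 for Mybpc1, and below BXD replicates 1 and 3. Mybpc2 (gene 292879, chromosome 1, 100506704 to 100530201), the fast myosin-binding protein C, stood at 138, 43.7 and 81.4 CPM in the BXD libraries, 85.9, 164 and 59.3 CPM in the model libraries and 42.5, 25.1 and 11.6 CPM in the control libraries. Every BXD library and every model library was above every control library for Mybpc2, as for 23.8% and 28.9% of all genes tested. Model replicate 2 was the highest.

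Casq2 (gene 29209, chromosome 2, 204512361 to 204568643), the slow and cardiac calsequestrin that stores calcium in the reticulum, stood at 42.6, 17.5 and 37.4 CPM in the BXD libraries, 12.0, 8.51 and 10.3 CPM in the model libraries and 21.2, 17.9 and 23.7 CPM in the control libraries. Every model library was below every control library and below every BXD library for Casq2, as for 29.4% and 10.5% of all genes tested. Smooth muscle markers moved beside Casq2. The sum of the 11 markers was 7831 to 11527 CPM in BXD libraries, 2663 to 4662 CPM in model libraries and 5544 to 8195 CPM in control libraries. Their part in the level of Casq2 was not tested. Casq1, the fast calsequestrin, stood at 87.7, 3.84 and 67.6 CPM in the BXD libraries, 1.75, 8.24 and 1.22 CPM in the model libraries and 4.76, 4.48 and 4.91 CPM in the control libraries. The controls lay between 4.48 and 4.91 CPM for Casq1, and BXD replicate 2 and model replicates 1 and 3 lay below them.

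**Figure D5:**
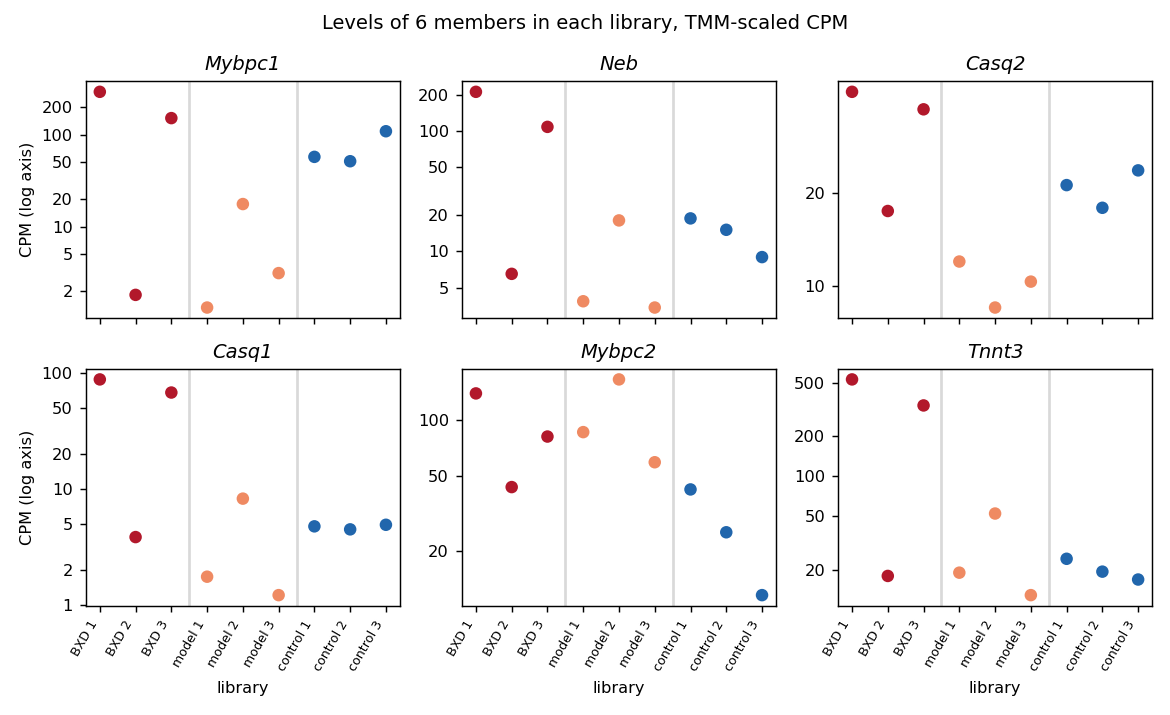
Level of Mybpc1, Neb, Casq2, Casq1, Mybpc2 and Tnnt3 in each library, in TMM-scaled CPM on log axes, with 1 point a library and colours by group from BXD to model to control. Mybpc1 stands at 51.4 to 109 CPM in controls and at 1.31 to 17.6 CPM in the model libraries, and Casq2 is lower in all 3 model libraries than in the other 6.

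Libraries of a group differed widely for these genes in BXD and in model. The median SD of log2 CPM over the 34 genes that passed the filter on low counts was 3.63 within BXD, 2.07 within model and 0.46 within control, against 0.23, 0.22 and 0.15 over all 14643 genes tested. Myh3, Myh6, Myl2, Tnnt2 and Tnni3 did not pass the filter and have no test. A gene could pass it through the group in which it was high, so counts over the 34 are a description.

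BXD against control asks how vessels of stressed and treated rats differed from vessels of unstressed rats. Of the 34 genes tested 30 were higher in BXD libraries and 0 lower at a Benjamini-Hochberg adjusted p under 0.05 in edgeR's quasi-likelihood test, where 16.1% of all genes were called higher and 14.3% lower. These were 14 of 14 fast genes, 5 of 7 slow genes, 1 of 2 cardiac genes and 10 of 11 shared genes. The median log2 fold change was 7.01 over the 34 genes and -0.02 over all genes, and it was the same with Trim54 set at its bound. DESeq2 also called 30 genes higher, where it called 19.6% of all genes higher. In contrast limma-voom called 1, Mybpc2, where it called 15% of all genes higher. The adjusted p-values of limma-voom for the 34 genes ran from 0.0497 to 0.781. Tnnc2, Myoz1 and Actn3 had the smallest p. Tnnc2 averaged 166 ± 138 CPM in BXD libraries, 10.9 ± 14.9 CPM in model libraries and 0.936 ± 0.0333 CPM in control libraries (SD, n = 3 each). The log2 fold change of Tnnc2 in BXD over control was 7.46 (SE 1.64, adjusted p = 0.0111), that of Myoz1 6.93 (SE 1.58, adjusted p = 0.0129) and that of Actn3 8.35 (SE 1.92, adjusted p = 0.0132). Acta1 averaged 1329 ± 1203 CPM in BXD libraries, 55.7 ± 86.8 CPM in model libraries and 7.62 ± 2.47 CPM in control libraries (SD, n = 3 each), and its log2 fold change over control was 7.45 (SE 1.98, adjusted p = 0.0226), and that of Myh7 was 7.21 (SE 2.31, adjusted p = 0.0445).

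The other called genes had adjusted p-values in the same test between 0.0149 and 0.0466. The log2 fold change was 10.87 (SE 2.90, adjusted p = 0.023) for Myh1, 10.29 (SE 2.68, adjusted p = 0.021) for Ttn and 8.42 (SE 2.05, adjusted p = 0.0162) for Tnni2. The smallest changes called were those of Mybpc2, at 1.74 (SE 0.57, adjusted p = 0.0466), and Casq1, at 3.49 (SE 1.01, adjusted p = 0.0299). Neb, Casq2, Myl4 and Mybpc1 were not called, with adjusted p-values of 0.0654, 0.131, 0.149 and 0.562. Every BXD library was above every control library for 23 of the 34 genes, where 23.8% of all genes were so, and for 11 genes BXD replicate 2 lay at or below the highest control. At a q-value under 0.05 in the authors' deposited table, 33 of 39 genes were higher and 0 lower, where 14.8% of all genes were higher.

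The count of calls depended on single libraries. Without control replicate 1, 2 or 3 it was 3, 2 and 2 of 37, 37 and 38 genes tested, where 10.1%, 9.71% and 10.2% of all genes were called higher. Without BXD replicate 3 it was 19, where 13.1% were. Tnnc2 was called without each of the 9 libraries in turn. Without BXD replicate 1, BXD replicate 3 and model replicate 2 together, a choice made after seeing the data that leaves 1 BXD library assumed to vary like the others, 6 of 30 genes tested were higher and 2 lower, where 12.7% of all genes were higher and 10.1% lower. Acta1 was then higher by 1.52 on the log2 scale, Ckm by 2.58, Mylpf by 2.85, Myh1 by 3.03, Tnnc2 by 3.04 and Ttn by 3.70, and Myh7 and Mybpc1 were lower, at -2.45 and -5.31. The direction of Myh7, with 4 counts in BXD replicate 2, was thus the opposite of that with all 9 libraries.

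BXD against model asks what the decoction did in stressed rats. In edgeR 0 of 34 genes were called, where 0.0615% of all genes were called, and 29 had an unadjusted p under 0.05, all higher in BXD, where 11% of all genes were so. DESeq2 called 13 genes higher, where it called 4.57% of all genes, and limma-voom called 0. The median log2 fold change was 4.02 over the 34 genes and -0.01 over all genes. Casq2 had the smallest p, and its log2 fold change in BXD over model was 1.66 (SE 0.31, adjusted p = 0.083), followed by Casq1 at 3.84 (SE 1.04, adjusted p = 0.125) and Myh2 at 6.19 (SE 1.74, adjusted p = 0.126). Casq2 averaged 32.5 ± 13.2 CPM in BXD libraries, 10.3 ± 1.74 CPM in model libraries and 20.9 ± 2.90 CPM in control libraries (SD, n = 3 each), and it was the only one of the 34 genes for which every BXD library was above every model library, where 10.5% of all genes were so.

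Without BXD replicate 2, edgeR called 11 genes higher in BXD than in model, where 0.743% of all genes were called higher, and without any other single library it called 0. Without the 3 high libraries together it called 0 of 30 genes, and Casq2 had a log2 fold change of 0.66. The authors' deposited table gave 3 genes with a q-value under 0.05, Myh2, Myh3 and Casq2, all higher in BXD, where 1.92% of all genes were higher.

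Model against control asks what immersion stress changed. Mybpc2 rose in model libraries, by 1.97 (SE 0.57, adjusted p = 0.0234) on the log2 scale in edgeR, and Casq2 fell, with a log2 value of -1.03 (SE 0.30, adjusted p = 0.0243). Mybpc2 averaged 87.8 ± 47.6 CPM in BXD libraries, 103 ± 54.6 CPM in model libraries and 26.4 ± 15.5 CPM in control libraries (SD, n = 3 each). These were the 2 calls among the 34 genes, where 21.6% of all genes were called higher and 20.6% lower. The log2 fold change was 3.47 (SE 1.45, adjusted p = 0.0818) for Tnnc1 and -3.32 (SE 1.40, adjusted p = 0.0861) for Mybpc1, and neither was called. Every model library was above every control library for 7 genes and below for 2, Casq2 and Mybpc1, where 28.9% and 29.4% of all genes were so. The median log2 fold change was 3.06 over the 34 genes and -0.01 over all genes, and model replicate 2 lay above all controls for 30 of the 34 genes, where 40.7% of all genes were so. This comparison and that of BXD against control share the control libraries.

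Neither call of that comparison held without every library. Mybpc2 was not called without control replicate 2, control replicate 3 or model replicate 2, with adjusted p-values of 0.0721, 0.0669 and 0.0910 and log2 fold changes of 1.91, 1.59 and 1.47. Casq2 was not called without control replicate 1, control replicate 3, model replicate 2 or model replicate 3, with adjusted p-values of 0.0553, 0.0703, 0.0838 and 0.0614. The count of calls was 1, 1 and 0 without control replicates 1, 2 and 3, and 0 and 1 without model replicates 2 and 3, where 14.1% to 19% of all genes were called in each direction. Without BXD replicate 2 it was 8, of which 6 were higher and 2 lower, where 19.2% and 19.6% of all genes were called. DESeq2 called 9 genes higher and 2 lower, where it called 24.4% and 21.8% of all genes. The sum of 11 fat markers, 10371 to 19804 CPM in model libraries and 3512 to 4614 CPM in control libraries, was highest in model replicate 2, the library with the most Mybpc2, and its part in that value was not tested.

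Without the 3 high libraries together, model against control gave 1 gene higher and 5 lower of 30 tested, where 19.4% of all genes were higher and 18.6% lower. Actn3 was higher by 3.24 on the log2 scale in the remaining model libraries. Mybpc1 was at -4.997, Neb at -1.98, Myh7 at -1.84, Casq1 at -1.67 and Casq2 at -0.91. These 5 genes stood at 1.49 CPM or more in every control library. The authors' deposited table gave 16 genes higher and 2 lower, Casq2 and Mybpc1, of 39 at a q-value under 0.05, where 19% of all genes were higher and 17.2% lower.

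Other genes of striated muscle, outside the list of 40, were counted in 4 lists. Of 20 tested genes of the Z-disc and M-band 15 were called higher in BXD than in control and 0 lower, of 12 of coupling and calcium handling 4 and 0, of 12 of energy supply 6 and 0, and of 10 regulators 7 and 0, where 16.1% of all genes were called higher and 14.3% lower. Without the 3 high libraries together the calls were 0 and 0 of 13, 0 and 1 of 10, 0 and 1 of 9 and 1 and 0 of 7 in the same order of lists, where 12.7% and 10.1% of all genes were called. In BXD against model edgeR called 0 genes of these lists. In model against control the calls were 2 higher and 1 lower for the Z-disc and M-band, 0 and 4 for coupling, 3 and 0 for energy and 1 and 0 for regulators, where 21.6% of all genes were called higher and 20.6% lower, so that most of these counts lay near or under the share of all genes. Without the 3 libraries they were 1 and 5 of 13, 0 and 5 of 10, 2 and 1 of 9 and 1 and 0 of 7, where 19.4% and 18.6% were called. The 4 coupling genes lower in model were Jph2, Cacnb1, Ryr2 and Cacna1c, and Jph2, which ties the reticulum to the surface membrane, fell, with a value of -1.19 on the log2 scale (SE 0.26, adjusted p = 0.00687) in edgeR. Jph2 stood at 115, 78.3 and 75.9 CPM in BXD libraries, 37.2, 21.0 and 25.8 CPM in model libraries and 59.7, 51.4 and 80.3 CPM in control libraries, and it was called without each of the 9 libraries in turn and without the 3 high libraries together. The other 3 calls were lost without some single libraries, 5 of the 9 for Cacnb1, 3 for Cacna1c and 1 for Ryr2. The sum of 11 smooth muscle markers was likewise lowest in model, at 2663 to 4662 CPM, against 5544 to 8195 CPM in control libraries. Its part in these 4 genes was not tested. The 3 energy genes higher in model were Cox8b, Fabp3 and Slc2a4, highest in model replicate 2 at 84.3, 374 and 240 CPM. Cox8b is also 1 of the 11 fat markers, whose sum was highest in the same library. The part of fat in these 3 genes was not tested. Xirp1, an actin-binding relative of Xirp2, stood at 434 and 77.9 CPM in BXD replicates 1 and 3 and 17.7 CPM in model replicate 2, and at 4.09 to 14.5 CPM in the other 6 libraries. Pygm, the muscle glycogen phosphorylase, stood at 265 and 139 CPM in BXD replicates 1 and 3 and 17.2 CPM in model replicate 2, and at 5.85 to 11.3 CPM in the others. Desmin (Des) and filamin C (Flnc), which smooth muscle makes too, were expressed in all 9 libraries, Des at 90.4 to 672 CPM.

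Factors that set the muscle lineage were found in the same libraries at low levels. Myod1, the myogenic factor MyoD, stood at 8.60 and 2.19 CPM in BXD replicates 1 and 3 and 0.179 CPM in model replicate 2, and at 0 to 0.0785 CPM in the other 6 libraries. Myf6, the myogenic factor of mature fibres, stood at 10.0 and 11.2 CPM in BXD replicates 1 and 3 and 1.08 CPM in model replicate 2, and at 0 to 0.157 CPM in the others. Pax7, a marker of satellite cells, stood at 1.67 and 0.755 CPM in BXD replicates 1 and 3 and 0.0896 CPM in model replicate 2 and at 0 in the others. Smyd1, a methyltransferase of sarcomere assembly, stood at 24.8 and 16.5 CPM in BXD replicates 1 and 3 and 1.43 CPM in model replicate 2, and at 0 to 0.235 CPM in the others. Mef2a, which many cell types express, was called higher both in BXD and in model than in control, and its levels of 187 to 247 CPM in BXD, 196 to 217 CPM in model and 101 to 119 CPM in control did not set the high libraries apart.

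Over the 9 libraries the Pearson correlation of log2 CPM with the mean of the tested striated genes was highest, at 0.993 to 0.996, for LOC298139, Smpx, Smtnl1, Ckmt2, Myoz2, Pgam2, LOC100909761, Myot, Art1 and Sypl2. Of 14609 other genes 81 (0.554%) had a correlation of at least 0.9. Of those 81 genes 28 were among the 54 tested genes of the 4 other striated lists, as were 5 of the 10 named. Of the 34 tested striated genes 29 had one of at least 0.9 with the mean of the others. The exceptions were Mybpc1 at 0.557, Casq2 at 0.589, Mybpc2 at 0.636, Myl4 at 0.649 and Neb at 0.8996. All these correlations share 9 libraries of which 3 stand apart, and they are a description.

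Marker sums of other cell types were compared with the same libraries. For squamous epithelium 3 of 6 markers were in the table. Their sum was 0.2505, 0.549 and 0.302 CPM in BXD libraries, 1.40, 1.34 and 0.304 CPM in model libraries and 0.0710, 0 and 0.140 CPM in control libraries. Krt13 was at 0 in 5 of the 9, and Krt4 stood at 1.05 and 1.34 CPM in model replicates 1 and 2. The gastric mucosa list stayed at 0.392 to 1.28 CPM, 0.896 to 3.27 CPM and 0.649 to 1.28 CPM in the same order of groups. The list of neuromuscular junction and satellite cell genes, 5 of 6 in the table, summed to 8.18, 3.45 and 4.00 CPM in BXD libraries, 3.42, 4.21 and 3.87 CPM in model libraries and 3.19, 3.12 and 2.31 CPM in control libraries, highest in BXD replicate 1. The sum of 11 smooth muscle markers was 11527, 8440.2 and 7831 CPM in BXD replicates 1 to 3, so that BXD replicate 3, with a striated sum of 6497 CPM, was the lowest of its group. The part of any of these cell types in the levels of the striated genes was not tested.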

How the data were processed

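The 9 libraries were made from poly(A) RNA of gastric lymphatic vessel and read on an Illumina sequencer, per the labels' protocols. Bowtie2 2.2.5, HISAT2 2.2.4 and Rnor_6.0 are named in the submitters' processing notes. What tool counted the reads was not given in the sources used here. No stranded kit is named, so reads of overlapping or antisense genes cannot be told apart.

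The authors deposited estimated counts per gene, of which 88.8% were whole within 1e-09, beside FPKM and TPM, per the file headers. A second table holds the authors' log2 fold changes with p-values and q-values, per its headers. A further 45 per-sample columns were not used here. A group given omeprazole was not analysed here.

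The 3 groups of 3 come from the titles. Estimated counts were rounded, filtered with filterByExpr to 14643 genes and scaled by TMM (trimmed mean of M-values), whose factors ran from 0.873 to 1.15. A quasi-likelihood model (edgeR 4.0.16, R 4.3.3) with group as its only term was fitted to all 9 libraries, with 6 residual degrees of freedom and a biological coefficient of variation of 23.3%. P-values were adjusted over all genes tested by Benjamini-Hochberg and called under 0.05. SEs were taken as the log2 fold change over the root of its F statistic. Replicates differed beyond counting noise (chi-square over its degrees of freedom, 14.0 to 52.1). The fit was tested on simulated data in which all genes shared 1 spread. It was not tested at the wider spread of the striated genes.

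Alternatives were other scalings, DESeq2 1.42.0, limma-voom (limma 3.58.1), no filter, limma on log2(FPKM + 0.1) and log2(FPKM + 1), the 2 groups alone, a replicate block and leaving out libraries. TPM served to order genes per length.

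The genes and lists were chosen with earlier results of these data known. Values are given for genes with at least 1 CPM in 1 library, and fold changes for called genes and for the 3 with the smallest p in each comparison. Fewer are named in places. Genes outside the list were the 10 with the highest correlation and, of other striated lists, called or above 10 CPM; Myod1, Pax7 and the Krt genes were chosen after their values were seen.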

Additional observations from a re-analysis of the deposited data

How the results depend on the processing

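For BXD against control, the 30 calls among 34 striated genes tested became 30 with DESeq2 or its size factors. They became 29 with upper quartile scaling or library size alone. With the 2 groups alone they were 23 of 28 genes tested, and with no filter 18 of 39. Limma on log2(FPKM + 0.1) and log2(FPKM + 1) called 17 and 12, limma-voom called 1, and fits without single libraries called 2 to 35. Under these settings 8.66% to 19.6% of all genes were called higher. Without BXD replicates 1 and 3 and model replicate 2 together, chosen after seeing the data, 1 BXD library was left. The log2 fold change was then -2.45 for Myh7, -2.27 for Myl3, -2.07 for Trdn and -1.46 for Tnnt1. It was -0.73 for Mb, -0.29 for Casq1 and -0.16 for Tnnt3. These signs are opposite to those with all 9 libraries. The BXD library left held 4 Myh7, 1 Myl3, 2 Trdn and 3 Tnnt1 counts, so the direction of these genes is uncertain. For BXD against model, the 0 calls became 13 with DESeq2, where 4.57% of all genes were called higher. Without single libraries they were 0 to 11, where 0% to 0.907% of all genes were called higher. For model against control, the 2 calls became 11 with DESeq2, 5 of 19 genes tested with the 2 groups alone, 6 without the 3 libraries and 0 to 8 without single libraries. The 9 genes called in BXD against model became 1108 with DESeq2, 3 with limma-voom, 16 with no filter, 25 and 29 with the FPKM fits, 1 with the 2 groups alone, 4 without the 3 libraries and 1 to 154 without single libraries, and the 4444 called in BXD against control became 2728 to 2852 without single controls.

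The replicate numbers do not pair the libraries, since residuals of same-numbered libraries correlated at -0.43 to 0.0859. With the replicate number as a block, 5 of 34 striated genes were called higher in BXD against control, where 13.2% of all genes were, and 1 gene of all in BXD against model.

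The ratio of summed levels in BXD replicate 1 over BXD replicate 3 was 1.77 over the striated genes, and 1.67 with library size alone, 1.80 with DESeq2 size factors, 1.57 on TPM, 1.48 on FPKM and 1.74 without the 3 most abundant genes. For the fast list it was 2.04, and 1.93, 2.08, 1.68, 1.59 and 1.73. For the slow list it was 1.32, and 1.25 with library size alone, 1.01 on TPM, and below 1 on FPKM, 0.954, and without the 3 most abundant genes, 0.843. The cardiac ratio of BXD replicate 3 over BXD replicate 1 was 2.28, and 1.72 on TPM and 1.83 on FPKM. Without the 3 most abundant of the 5 cardiac genes it was 0.759, from Tnnt2 and Tnni3 alone. These stood at 1.59 and 0.501 CPM in BXD replicate 1 and 0.830 and 0.755 CPM in BXD replicate 3, so this value rests on few counts. The cause of these shifts was not tested. Depth limits genes at or below 3 counts a library.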

Other observations

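Among the 9 genes that edgeR called between BXD and model were a pair of cytoskeletal genes that striated muscle shares with smooth muscle. Tmod1, which caps the pointed end of actin filaments, stood at 43.7, 27.1 and 41.4 CPM in BXD libraries, 14.4, 10.3 and 11.8 CPM in model libraries and 19.5, 22.0 and 21.9 CPM in control libraries, and was higher in BXD than in model by 1.62 on the log2 scale (SE 0.20, adjusted p = 0.0386). Synm, an intermediate filament partner of desmin, stood at 270.3, 251 and 232 CPM in BXD libraries, 136, 114 and 125 CPM in model libraries and 127, 133 and 153 CPM in control libraries, and was higher in BXD than in model by 1.01 on the log2 scale (SE 0.11, adjusted p = 0.0320). For both genes BXD replicate 2, which lacked the high striated sum, lay with the other BXD libraries above every model library. Their correlation with the mean of the striated genes over the 9 libraries was 0.609 for Tmod1 and 0.628 for Synm. The sum of 11 smooth muscle markers was 7831 to 11527 CPM in BXD libraries and 2663 to 4662 CPM in model libraries, and its part in both genes was not tested. Both calls were lost with the 2 groups alone (adjusted p = 0.139 in edgeR), with the replicate block (0.1004), without BXD replicate 1, BXD replicate 3 and model replicate 2 together (0.187), and without BXD replicate 3 or any single model or control library (0.0521 to 0.208), while the log2 difference ran from 1.06 to 1.81 for Tmod1 and from 0.95 to 1.09 for Synm. The Tmod1 call was also lost with limma-voom (adjusted p = 0.0593). Both were chosen after their values were seen.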
